A study of Homo sapiens with 7 samples.

Results

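The 40 genes described here encode proteins that the liver secretes into plasma and proteins that assemble, remodel or take up lipoproteins. They were listed by name among the 19974 protein-coding genes of the RefSeq gene table for GRCh38.p14. The rule uses no measured value, but the genes were chosen with earlier results of these data known. A called peak was assigned to a gene when its summit lay inside the gene's span or within 50 kb of it. By this rule the genes held 286 peaks of 6 deposited peak lists, which merged into 187 of the series' 92292 regions. Where windows of neighbouring genes ran together they were joined, so that the 40 genes filled 33 windows of 4.55 Mb in all.

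The study asked where PPARα sits on chromatin in HepG2, a cell line of human hepatocellular carcinoma origin, when an estrogen receptor is present as well. In the PPARα+ERα group, cells received expression vectors for PPARα and ERα (pCMV ERalpha), then 10 nM PPT, an ERα agonist, for 45 min before the PPARα agonist. In the PPARα+ERβ group, cells received PPARα with ERβ (pcDNA Flag ERbeta) and 10 nM of the ERβ agonist DPN for 45 min in the same way. The PPARα group, which serves as control, carried the PPARα vector alone. All groups were treated 48 h after transfection with 10 µM WY14643, the PPARα agonist, for 2 h, and all chromatin was precipitated with the same antibody to PPARα. The labels write this agonist both as Wy13643 and as Wy14643. PPARα came from a transfected vector in every group, so no library shows binding by the cells' own PPARα alone, and each pull-down drew on several plates of 1 cell line. The 2 libraries of each group are not described as separate cultures, and their numbers follow the order of deposit. A seventh sample, without antibody, was not analysed here. Hepatocyte markers (ALB, AFP, TTR, TF, SERPINA1, APOA1 and APOB) are among the genes, but a peak list measures no transcript, so the cells' identity could not be checked from it.

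PPARα is a nuclear receptor that binds DNA with RXR at direct repeats of AGGTCA spaced by a single base, called DR1 elements. Fatty acids and fibrate drugs activate it, and in human liver fibrates are known for raising the high-density lipoprotein proteins ApoA-I and ApoA-II and for lowering ApoC-III and plasma fibrinogen. Hepatocytes secrete most of the proteins of plasma, and estrogens given by mouth are known to alter several of them, clotting factors included. A peak is a stretch where precipitated DNA fragments pile up above the background that the peak caller expected there. It shows neither transcription of a nearby gene nor which gene, if any, it acts on.

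The promoters were inspected first, because a peak over a promoter needs no distance rule to be tied to a gene. RefSeq promoter entries (250 bases before to 50 after a transcript start, GRCh38.p14) were at hand for 28 of the genes, as 38 entries. No entry was matched for ABCG1, APOA1, APOB, APOC3, C3, CP, HP, LCAT, LPL, SCARB1, SERPINC1 or TTR. A peak in both PPARα+ERα libraries overlapped 1 of the 38 entries, against 0.243% of 34961 entries on chromosomes 1 to 22 and X. That promoter belongs to HPX, hemopexin, the plasma scavenger of free heme. None of the 38 was overlapped in both PPARα+ERβ libraries, where the share over all entries was 0.240%, or in both PPARα libraries, where it was 0.240% as well. The HPX promoter is shown because it was the only one under a peak, and the promoters of ALB (serum albumin), FGB (fibrinogen beta chain) and AHSG (fetuin-A, a mineral-binding plasma protein) are shown beside it because a summit of a single PPARα+ERα library lay within 3 kb before their starts. Capitals mark AGGNCANAGGNCA, a loose form of the DR1 element, its single element AGGTCA, and the CCAAT box, each on either strand.
HPX, chr11:6440938-6441237, minus strand: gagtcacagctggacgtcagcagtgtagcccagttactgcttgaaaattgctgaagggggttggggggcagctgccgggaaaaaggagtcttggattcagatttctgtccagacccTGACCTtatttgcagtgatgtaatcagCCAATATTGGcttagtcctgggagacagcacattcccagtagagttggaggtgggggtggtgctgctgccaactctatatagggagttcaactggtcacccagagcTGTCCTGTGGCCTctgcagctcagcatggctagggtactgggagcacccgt
ALB, chr4:73404037-73404336, plus strand: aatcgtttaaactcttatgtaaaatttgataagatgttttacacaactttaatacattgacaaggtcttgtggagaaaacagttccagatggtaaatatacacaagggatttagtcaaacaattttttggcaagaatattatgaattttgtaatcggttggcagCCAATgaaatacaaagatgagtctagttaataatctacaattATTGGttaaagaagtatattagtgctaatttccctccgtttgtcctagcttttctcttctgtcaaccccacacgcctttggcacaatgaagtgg
FGB, chr4:154562730-154563029, plus strand: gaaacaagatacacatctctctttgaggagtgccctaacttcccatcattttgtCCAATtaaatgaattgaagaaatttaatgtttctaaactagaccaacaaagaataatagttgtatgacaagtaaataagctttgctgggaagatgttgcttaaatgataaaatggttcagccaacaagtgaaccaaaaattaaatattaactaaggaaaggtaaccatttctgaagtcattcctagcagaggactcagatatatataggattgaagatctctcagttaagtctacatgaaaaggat
AHSG, chr3:186612810-186613109, plus strand: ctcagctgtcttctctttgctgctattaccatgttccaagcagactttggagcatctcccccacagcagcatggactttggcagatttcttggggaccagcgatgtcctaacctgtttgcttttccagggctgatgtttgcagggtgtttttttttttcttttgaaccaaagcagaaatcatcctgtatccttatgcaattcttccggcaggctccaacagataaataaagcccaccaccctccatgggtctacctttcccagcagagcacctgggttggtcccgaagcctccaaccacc
In the HPX promoter the loose DR1 match reads TGTCCTGTGGCCT and begins 1 base before the transcript start. The CCAAT boxes of HPX face each other in the run CCAATATTGG. The AHSG promoter held none of the 3 marked motifs.

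The HPX region lay at chr11:6440589-6441017, reached over the transcript start at 6440987 and was covered by 8 fragments at the summit in PPARα+ERα library 1 and 10 in library 2. Its summits lay 222 and 272 bases downstream of that start, inside the gene. The peaks took in 77 and 80 bases of the promoter entry, the loose DR1 match among them, whose nearer edge was 211 and 261 bases away from the summits. The fold over local background was 6.48 and 7.75, and no peak was called there in any PPARα+ERβ or PPARα library. Within their own lists these peaks ranked at the 63.5th and 77.9th percentile of −log10 q.

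Among the 38 entries, HPX alone held the loose DR1 AGGNCANAGGNCA, which 0.310% of all 35116 entries held. The strict form AGGTCANAGGTCA was in none of the 38 and in 0.0228% of all entries. The single element AGGTCA, which also lies within the strict DR1, was found in 11 entries of 10 genes (TF, MTTP, AMBP, HPX, F2, APOA5, F7, SERPINA1, LIPC and VTN) and in 13.8% of all entries. An estrogen response element of the form GGTCANNNTGACC was in none of the 38 and in 0.0570% of all entries. CCAAT was found in 17 entries of 15 genes and in 34.6% of all, and TATAAA in 9 entries of 7 genes and in 11.5% of all. GTTAATNATTAA, a site of the liver factor HNF1, was found for LIPC alone and in 0.0484% of all entries. All motifs were searched on both strands. A match describes these letters only, and the window says nothing about the distal regions described next.

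The lists differed in length and in the number of fragments behind a peak, which bears on every count that follows. They held 24505 and 27544 peaks in PPARα+ERα, 17457 and 23302 in PPARα+ERβ, and 23805 and 36302 in PPARα. Near the 40 genes the median summit held 9 and 10 fragments in the PPARα+ERα libraries, 37 and 34 in the PPARα+ERβ libraries, and 32 and 62 in the PPARα libraries. The median local background there was 1.00 and 1.28 times the library's genome-wide level in PPARα+ERα, 12.4 and 9.74 times in PPARα+ERβ, and 11.04 and 16.9 times in PPARα. Over all peaks the medians were 1.64 and 1.57 times in PPARα+ERα, 9.34 and 8.52 in PPARα+ERβ, and 13.5 and 15.7 in PPARα. A genome-wide level of 1 fragment was estimated per 780 and 725 bases in PPARα+ERα, 537 and 450 in PPARα+ERβ and 537 and 471 in PPARα, so the PPARα+ERα libraries were the shallowest. A region with no peak in a library was not called at this depth, which does not show that PPARα was absent.

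**Figure D1:**
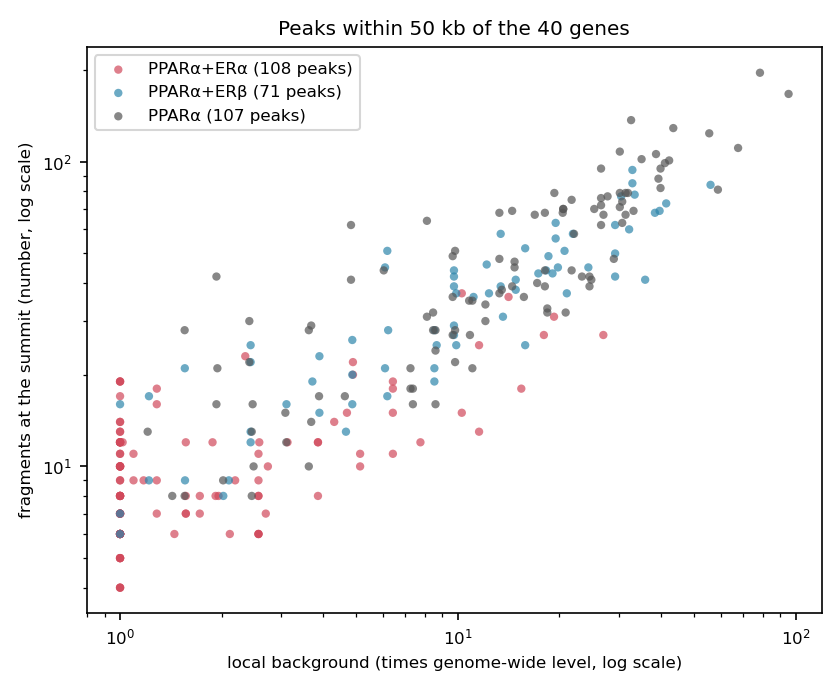
Fragments at the summit (vertical, log scale) against the local background as a multiple of the library's genome-wide level (horizontal, log scale) for the 286 peaks near the 40 genes, coloured by group. The 108 PPARα+ERα peaks crowd at the left, 53 of them at the genome-wide level itself, where 3 of 71 PPARα+ERβ peaks and 0 of 107 PPARα peaks lie.

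Near the 40 genes 53 and 55 peaks were called in the PPARα+ERα libraries, 27 and 44 in the PPARα+ERβ libraries, and 40 and 67 in the PPARα libraries. That is 11.7 and 12.1 peaks per Mb in PPARα+ERα, 5.94 and 9.68 in PPARα+ERβ, and 8.80 and 14.7 in PPARα. Across chromosomes 1 to 22 and X the densities were 8.09 and 9.09 peaks per Mb in PPARα+ERα, 5.76 and 7.69 in PPARα+ERβ, and 7.86 and 11.98 in PPARα. The ratio of the density near the genes to that of the genome was thus 1.39 ± 0.078 in PPARα+ERα, 1.14 ± 0.16 in PPARα+ERβ and 1.18 ± 0.078 in PPARα (SD, n = 2 libraries each). Unlike the shares of genes given below, this ratio is set against whole chromosomes, not against windows around other genes. The 2 PPARα+ERα values, 1.44 and 1.33, lay above all the others, of which the highest was 1.26. With 2 libraries against 2, the smallest two-sided p of an exact permutation test is 0.333, so no comparison of libraries here can pass 0.05. The SDs measure only the spread between these libraries, which may be technical. Within 10 kb of the genes the ratio was 1.33 in PPARα+ERα, 0.949 in PPARα+ERβ and 0.931 in PPARα. Those of PPARα+ERβ and PPARα were thus below that of the genome.

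Every gene had a peak in at least 1 library, and 12 genes had peaks in all 6. In single libraries, 32 and 30 of the 40 genes had a peak in PPARα+ERα, 21 and 25 in PPARα+ERβ, and 27 and 34 in PPARα. The same counts over all genes are not given here, so these are not read as particular to the 40. HP held the most, with 2 and 5 peaks in PPARα+ERα, 3 and 3 in PPARα+ERβ, and 2 and 5 in PPARα. F10, coagulation factor X, held the fewest, a single peak in PPARα+ERα library 1. The libraries of a group often disagreed. APOH, beta-2-glycoprotein I, had 6 and 0 peaks in PPARα+ERα, 0 and 3 in PPARα+ERβ, and 2 and 1 in PPARα.

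**Figure D2:**
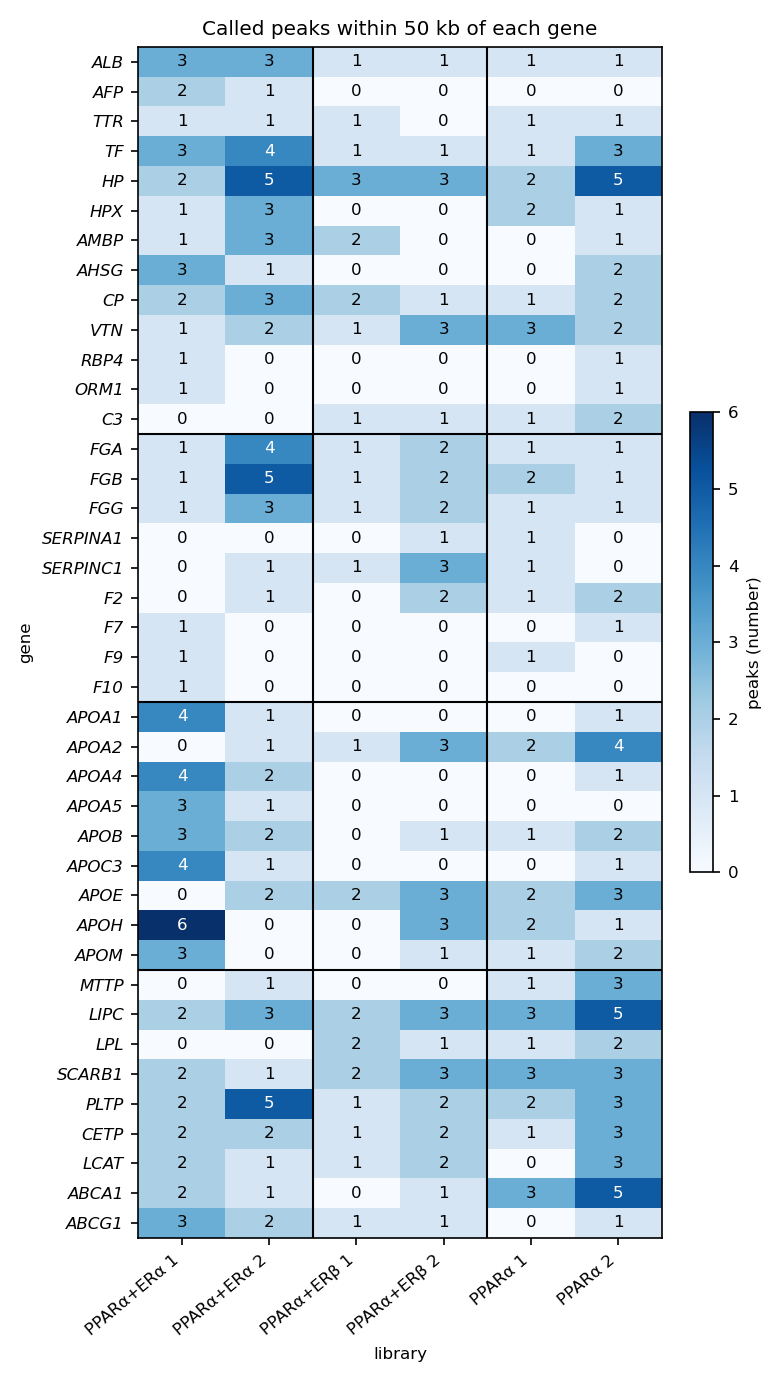
Number of called peaks within 50 kb of each of the 40 genes (rows, grouped by role) in each of the 6 libraries (columns); darker cells hold more peaks. AFP and APOA5 have peaks in both PPARα+ERα libraries and in none of the other 4, and LPL and C3 have none in PPARα+ERα. The AFP peaks are also counted for ALB, and the APOA5 peaks for APOA4.

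Of the 187 regions, 122 were called in 1 library, 38 in 2, 20 in 3 and 7 in 4, and none in 5 or 6. This split over all regions of the series is not given here. A region is called occupied in a group here when both its libraries had a peak in it. Of 93 regions with a PPARα+ERα peak, 15 (16.1%) were occupied, against 14 of 57 (24.6%) in PPARα+ERβ and 24 of 83 (28.9%) in PPARα. The same shares over all regions of the series were 20.5% in PPARα+ERα, 33.4% in PPARα+ERβ and 41.4% in PPARα. Occupied PPARα+ERα regions rested on a median of 10.5 fragments at a median background of 1.00 times the genome-wide level. Occupied PPARα+ERβ regions had 39 fragments and 11.04 times, and occupied PPARα regions had 44 fragments and 13.3 times.

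An occupied region lay within 50 kb of 18 of the 40 genes (45%) in PPARα+ERα, where 38.0% of all genes had one. In PPARα+ERβ it was 14 genes (35%) against 46.6% of all, and in PPARα 20 genes (50%) against 60.5% of all. Neighbouring genes shared regions, so these genes are not all separate cases. Occupied regions lay in 14 of the 33 joined windows in PPARα+ERα, 12 in PPARα+ERβ and 18 in PPARα. The genes' median span is 13.7 kb, shorter than the 24.2 kb of all genes. With 50 kb added on either side their windows are thus somewhat smaller, and whether this bears on the shares was not tested. In all, 30 genes had an occupied region in at least 1 group, a count not given here for all genes. The 10 others were AFP, AHSG, RBP4, ORM1, F2, F7, F9, F10, SERPINA1 and APOA5. ALB, HP, FGA, FGB, FGG, LIPC and SCARB1 had occupied regions in all 3 groups, a state found for 19.3% of all genes, although no single region was occupied in PPARα+ERα and in another group. Within 10 kb the counts were 8 genes (20%, against 21.0% of all genes) in PPARα+ERα, 3 (against 25.3%) in PPARα+ERβ and 6 (against 34.1%) in PPARα, so the share of the 40 genes in PPARα+ERα no longer lay above that of all genes. With peaks at no more than 3 times the genome-wide level, 16 genes were left in PPARα+ERα against 30.5% of all, 2 in PPARα+ERβ against 14.0% and 2 in PPARα against 15.6%. Without PPARα+ERα library 1 the count for that group was 30 (75%), against 72.7% of all genes, and without library 2 it was 32 (80%), against 68.8%. It was 25 for PPARα+ERβ without its library 1, against 73.1% of all genes, and 34 for PPARα without its library 1, against 83.8%. With 1 library left out, a peak in the remaining library suffices, so higher counts are part of the construction.

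By role, the counts of genes with an occupied region are read beside the shares of all genes, 38.0% in PPARα+ERα, 46.6% in PPARα+ERβ and 60.5% in PPARα. Carrier and acute-phase proteins, 13 of the genes, had such a region at 6 (46.2%) in PPARα+ERα, 5 (38.5%) in PPARα+ERβ and 7 (53.8%) in PPARα. Near ALB, the most abundant carrier protein of plasma, 3 and 3 peaks were called in PPARα+ERα, 1 and 1 in PPARα+ERβ, and 1 and 1 in PPARα. The ALB peaks of PPARα+ERβ and of PPARα were joined into a single region at chr4:73374336-73375351. Their summits lay 29095 and 29097 bases before the gene's start in PPARα+ERβ and 29751 and 29097 bases before it in PPARα. It held 51 and 45 fragments in PPARα+ERβ and 16 and 44 in PPARα, with folds of 11.3 and 8.65 in PPARα+ERβ and of 2.81 and 8.84 in PPARα. It ranked at the 99.7th and 97.4th percentile of the PPARα+ERβ lists, and at the 4.14th and 83.3rd percentile of the PPARα lists. The peak of PPARα library 1 had a summit of its own and did not overlap that of PPARα+ERβ library 2. No PPARα+ERα peak overlapped it. The occupied PPARα+ERα region of ALB was another, at chr4:73382212-73382528, 21884 bases before the start, with 6 fragments in each library and folds of 5.04 and 4.93. Of AFP, the fetal counterpart of albumin, 2 and 1 peaks were called in PPARα+ERα and 0 in the other 4 libraries, but in no region by both PPARα+ERα libraries. All AFP peaks were also counted for ALB.

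HP encodes haptoglobin, which captures free hemoglobin. Of its regions, chr16:72040035-72040621, 14022 bases below the lower end of the gene's span, ranked highest among those called in both PPARα libraries and in no PPARα+ERα library. It held 19 and 26 fragments in PPARα+ERβ (fold 6.31 and 6.06), 29 and 62 in PPARα (fold 9.48 and 14.8), and was not called in PPARα+ERα. Close by, chr16:72037788-72038194 was likewise called in both PPARα+ERβ and both PPARα libraries, with folds of 3.66 and 3.57 in PPARα+ERβ and of 4.22 and 4.83 in PPARα. Another, chr16:72028107-72028537, had 49 and 63 fragments in PPARα+ERβ and 79 in PPARα library 2. The PPARα+ERα region of HP lay on the other side of the gene, inside DHX38 at chr16:72098433-72098816, with 8 and 9 fragments.

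CP encodes ceruloplasmin, the copper-carrying ferroxidase of plasma. Inside the gene, chr3:149190664-149191057 was called with 37 and 46 fragments in PPARα+ERβ and with 48 in PPARα library 2. The PPARα+ERα region lay 31166 bases away from the gene inside HPS3, at chr3:149131126-149131476, with 12 and 12 fragments and folds of 9.35 and 9.16. TF, transferrin, carries iron. An occupied PPARα+ERα region with 9 and 11 fragments lay inside the gene at chr3:133772818-133773170, 26610 bases downstream of the later of its listed starts. The occupied PPARα region, with 35 and 27 fragments, lay inside TOPBP1, 8495 bases before the earlier listed start of TF and much farther from the later one. Of AMBP, the precursor of alpha-1-microglobulin, chr9:114055707-114056204 inside ZNF618 was called with 8 and 9 fragments in PPARα+ERα and in no other library. HPX, described above for its promoter, had a further region at chr11:6416409-6416760 inside APBB1 with 63 and 79 fragments in PPARα (fold 3.36 and 3.73), at 30.7 and 30.2 times the genome-wide background, and with no peak in the other 4 libraries.

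C3, the central complement component, had 0 and 0 peaks in PPARα+ERα, 1 and 1 in PPARα+ERβ, and 1 and 2 in PPARα. The region chr19:6762121-6762696, inside SH2D3A and 41851 bases above the gene, had 21 and 42 fragments in PPARα with folds of 10.3 and 18.6. Its background was 1.94 and 1.93 times the genome-wide level, and C3 and LIPC were the 2 genes whose occupied PPARα regions remained when peaks on higher background were left out. It was not called in PPARα+ERα or PPARα+ERβ. A second C3 region, chr19:6649551-6649933, was called in both PPARα+ERβ libraries and in PPARα library 2. VTN, the adhesion protein vitronectin, had the only occupied region with a peak from all 3 groups, chr17:28330061-28330576 inside IFT20. Its fragments numbered 5 in PPARα+ERα library 1, 16 and 17 in PPARα+ERβ, and 13 in PPARα library 2. TTR, which carries thyroxine and retinol-binding protein, had an occupied PPARα region 22839 bases below the gene, with 25 fragments in PPARα+ERβ library 1 and 28 and 49 in PPARα.

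Clotting factors and protease inhibitors, 9 genes, had an occupied region at 3 (33.3% against 38.0% of all genes) in PPARα+ERα, 4 (44.4% against 46.6%) in PPARα+ERβ and 3 (33.3% against 60.5%) in PPARα. The 3 fibrinogen genes FGB, FGA and FGG, whose chains form the clot protein, stand side by side and share regions. The region chr4:154571470-154571840 lay inside FGB, 8569 bases downstream of its start. It held 41 and 58 fragments in PPARα+ERβ (fold 4.34 and 5.62) and 45 and 68 in PPARα (fold 4.76 and 6.90), at 13.3 to 14.8 times the genome-wide background, and no peak was called there in PPARα+ERα. The region chr4:154603446-154603797 lay 607 bases beyond the 3′ end of FGG. It held 13 and 17 fragments in PPARα+ERα, with folds of 10.1 and 12.7 at the genome-wide background, and was called in no other library. SERPINC1, antithrombin, was the fourth gene of PPARα+ERβ, through chr1:173936515-173936950 inside RC3H1 with 25 and 28 fragments in PPARα+ERβ and 28 in PPARα library 1. F2, F7, F9 and F10 (prothrombin and coagulation factors VII, IX and X) and SERPINA1 (alpha-1-antitrypsin) had no occupied region and 1 to 6 peaks each over all libraries.

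**Figure D3:**
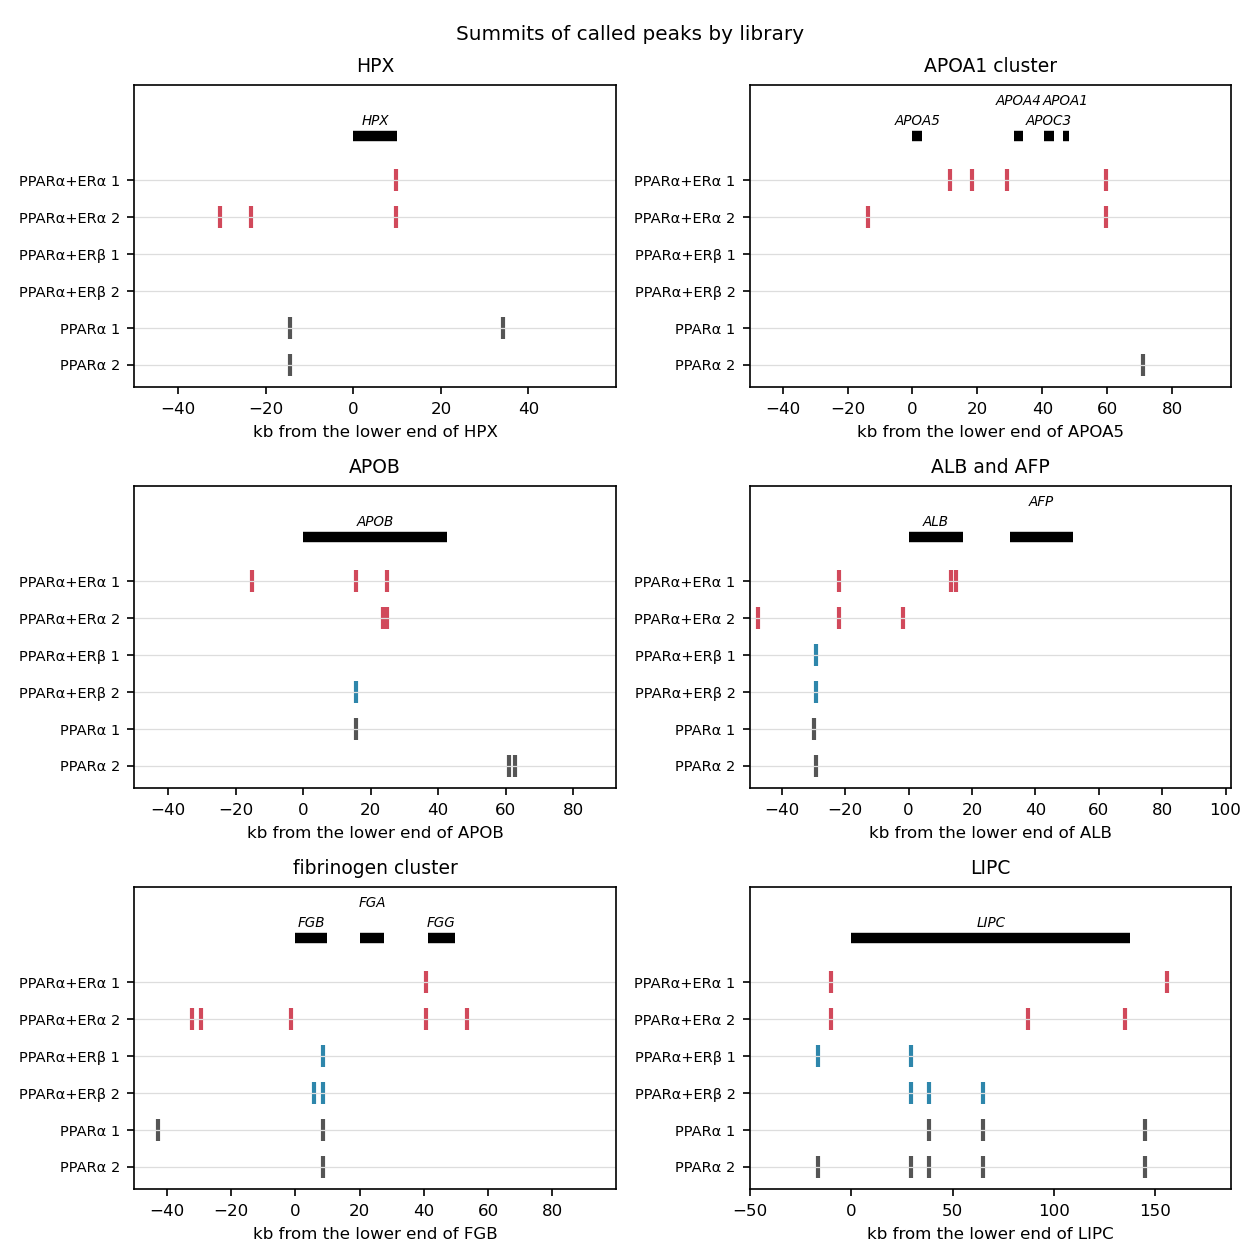
Summits of called peaks (ticks) in the 6 libraries (rows) around HPX, the APOA1 cluster, APOB, ALB with AFP, the fibrinogen cluster and LIPC, against the distance in kb from the lower end of the first gene, with gene spans as black bars. PPARα+ERβ and PPARα ticks line up at FGB and inside LIPC, and before ALB except for PPARα library 1, while paired PPARα+ERα ticks stand at other places.

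Apolipoproteins, 9 genes, had an occupied region at 4 (44.4% against 38.0% of all genes) in PPARα+ERα, 1 (11.1% against 46.6%) in PPARα+ERβ and 4 (44.4% against 60.5%) in PPARα. APOB, the structural protein of very-low-density and low-density lipoproteins, held the region that ranked highest among those called in PPARα+ERα and not in PPARα, chr2:21025899-21026267 inside the gene. It had 16 and 18 fragments in PPARα+ERα with folds of 11.3 and 12.3 at 1.28 times the genome-wide background, and no peak in the other 4 libraries. It stood at the 97.3rd and 98.2nd percentile of the PPARα+ERα lists. APOA1, APOC3 and APOA4, which encode the main protein of high-density lipoprotein, an inhibitor of triglyceride clearance and an intestinal apolipoprotein, shared chr11:116848964-116849376 inside SIK3, 11452 bases above APOA1. It had 7 and 7 fragments in PPARα+ERα and no peak elsewhere. Near APOA1, 4 and 1 peaks were called in PPARα+ERα, 0 and 0 in PPARα+ERβ, and 0 and 1 in PPARα. APOA5, an activator of triglyceride breakdown in the same cluster, had 3 and 1 peaks in PPARα+ERα and 0 in each of the 4 others. All APOA5 peaks were also counted for APOA4.

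APOA2, which encodes the second protein of high-density lipoprotein, had 0 and 1 peaks in PPARα+ERα, 1 and 3 in PPARα+ERβ, and 2 and 4 in PPARα. The region chr1:161179815-161180159, 42241 bases below the gene, had 67 and 95 fragments in PPARα (fold 4.03 and 5.06) at 27.0 and 26.6 times the genome-wide background and was called in no other library. A neighbour at chr1:161178298-161178690 had 73 fragments in PPARα+ERβ library 2 and 79 and 99 in PPARα. APOM, carrier of sphingosine-1-phosphate on lipoproteins, had a region at chr6:31650667-31651102, inside BAG6. This region lay 5122 bases before the listed start of APOM and 1632 bases below the lower end of the gene's span. It held 77 fragments in PPARα+ERβ library 2 and 74 and 108 in PPARα. APOE, the ligand by which remnant particles are taken up, was the only 1 of the 9 listed apolipoproteins with an occupied PPARα+ERβ region. At chr19:44954153-44954855 it had 78 and 94 fragments in PPARα+ERβ (fold 3.85 and 3.91) and 69 and 137 in PPARα (fold 3.42 and 5.98), at 32.6 to 33.4 times the genome-wide background. The region lies 45044 bases above APOE. APOE was not alone in this: among 73 further genes described below, APOC1, APOC2 and APOC4 also had an occupied PPARα+ERβ region. Whether that was the same region as for APOE was not checked, so these genes are not read as separate cases. APOH had a region at chr17:66258874-66259408 with 39 fragments in PPARα+ERβ library 2 and 38 and 37 in PPARα.

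Genes of lipoprotein assembly, lipolysis, transfer and transport, 9 in number, had an occupied region at 5 (55.6% against 38.0% of all genes) in PPARα+ERα, 4 (44.4% against 46.6%) in PPARα+ERβ and 6 (66.7% against 60.5%) in PPARα. CETP, which exchanges cholesteryl ester for triglyceride between particles, had chr16:56922385-56922880 in PPARα+ERα with 37 and 36 fragments, the most of any occupied PPARα+ERα region here, at 10.3 and 14.1 times the genome-wide background. It lay 39319 bases before the start of CETP. Another region, inside NLRC5 at chr16:57006101-57006428, had 9 and 21 fragments in PPARα+ERβ and 8 in PPARα library 1. PLTP, the phospholipid transfer protein, had chr20:45927889-45928222 in PPARα+ERα with 20 and 22 fragments (fold 7.22 and 7.54) and no peak elsewhere. Inside PLTP, chr20:45901901-45902312 had 69 fragments in PPARα+ERβ library 1 and 88 and 106 in PPARα (fold 3.69 and 3.94), at 38.6 to 39.6 times the genome-wide background.

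SCARB1, the hepatic receptor for high-density lipoprotein, had chr12:124775832-124776163 in PPARα+ERα, with 12 and 12 fragments and folds of 9.35 and 9.16. This region lay 923 bases outside the lower end of the gene's span. The strand of SCARB1 was not given, so that end may not be its start. In PPARα+ERβ and PPARα its occupied region was chr12:124901894-124902586, on the other side of the gene, with folds of 3.62 and 1.98 in PPARα+ERβ and of 2.69 and 4.65 in PPARα. ABCG1, a cholesterol exporter, had 12 and 14 fragments in PPARα+ERα inside the gene at chr21:42270267-42270621, where PPARα+ERβ library 1 had 6. ABCA1, the exporter that lipidates ApoA-I, had 2 and 1 peaks in PPARα+ERα, 0 and 1 in PPARα+ERβ, and 3 and 5 in PPARα. Its region chr9:104970376-104970822, 42356 bases before the start, held 33 and 44 fragments in PPARα with folds of 2.88 and 3.39. MTTP, which loads lipid onto ApoB, had chr4:99551666-99551992 inside TRMT10A, 12320 bases before its start, with 14 and 21 fragments in PPARα. The MTTP and ABCA1 regions named here were called in no PPARα+ERα or PPARα+ERβ library.

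LIPC, hepatic lipase, had 5 occupied regions, the most of the 40 genes, and its span is long. The PPARα+ERα region lay 9973 bases before the start with 8 and 7 fragments. Inside the gene, PPARα+ERβ occupied chr15:58461248-58461597 with 15 and 27 fragments, and PPARα library 2 had 36 there. PPARα occupied 2 further regions inside the gene, of 47 and 69 and of 13 and 22 fragments, both also called in PPARα+ERβ library 2. Beyond the upper end of the gene it occupied another, of 10 and 16 fragments. Lipoprotein lipase, LPL, had no peak called in PPARα+ERα inside the gene at chr8:19963435-19963801, where PPARα+ERβ library 2 had 44 fragments and the PPARα libraries 51 and 67. LCAT, which esterifies cholesterol on high-density lipoprotein, had chr16:67918220-67918607 inside PSKH1 with 37 and 29 fragments in PPARα+ERβ and 27 in PPARα library 2.

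PPARα+ERα was set against PPARα by counting genes with a region called in both libraries of 1 group and in neither library of the other. It was found in PPARα+ERα and not in PPARα for 18 of the 40 genes, against 36.7% of all genes, and in PPARα and not in PPARα+ERα for 20, against 58.9% of all. These rest on 15 and 24 regions, that is, on every occupied region of either group. The leading PPARα+ERα regions were those of APOB, the fibrinogen cluster, CETP, ABCG1 and PLTP, and the leading PPARα regions those of HP, APOM, APOA2, PLTP and C3. The first count was 30 without PPARα+ERα library 1, against 71.1% of all genes, and 31 without PPARα+ERα library 2, against 67.1%. The second was 34 without PPARα library 1, against 83.1%. The order of the 2 counts depended on the peaks used: 8 in PPARα+ERα and not in PPARα against 6 in the reverse within 10 kb (20.2% and 32.9% of all genes), 16 against 14 with lists of equal length (27.7% and 40%) and 16 against 2 at low background (29.7% and 13.1%).

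PPARα+ERβ set against PPARα gave 0 of the 40 genes with a region in PPARα+ERβ and not in PPARα, where 10.8% of all genes had one. In the other direction 6 genes (HPX, C3, APOA2, MTTP, LIPC and ABCA1) had a region in PPARα and not in PPARα+ERβ, against 25.3% of all. All 14 occupied PPARα+ERβ regions were called in at least 1 PPARα library, and 6 of them in both. In PPARα+ERβ and PPARα, 42 regions had a peak in at least 1 library of each, which is 73.7% of the PPARα+ERβ regions and 50.6% of the PPARα regions. These shares over all regions of the series are not given here. With every list cut to its 17457 strongest peaks, PPARα+ERβ without PPARα was found for 4 genes, against 16.2% of all, and PPARα without PPARα+ERβ for 3, against 13.7%, so the larger count was then on the PPARα+ERβ side. The first count was 10 without PPARα+ERβ library 1 (38.8% of all genes), 4 without PPARα+ERβ library 2 (28.2%), 2 without PPARα library 1 (15.8%) and 6 without PPARα library 2 (19.2%). The second was 11 without PPARα+ERβ library 2 (40.7% of all genes), 21 without PPARα library 1 (66.2%) and 12 without PPARα library 2 (36.7%), and 9 without PPARα+ERβ library 1 (32.0%), where it was the smaller of the pair.

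PPARα+ERα set against PPARα+ERβ gave 18 genes with a region in PPARα+ERα and not in PPARα+ERβ, against 35.5% of all genes. It gave 13 genes in the other direction, against 43.0% of all. The leading PPARα+ERβ regions were those of ALB, APOE, HP, the fibrinogen cluster and CP, all of them seen in PPARα as well. Only 3 regions had a peak in both PPARα+ERα and PPARα+ERβ, 3.23% of the PPARα+ERα regions and 5.26% of the PPARα+ERβ regions. Likewise 3 regions had a peak in PPARα+ERα and PPARα, 3.23% of the PPARα+ERα regions and 3.61% of the PPARα regions. The same shares over all regions of the series are not given here, so they are not read as a trait of these genes. Over all genes, 38.0% had an occupied PPARα+ERα region. Regions called in both PPARα+ERα libraries and in neither PPARα library lay near 36.7% of all genes, almost as many. The first count was 30 without PPARα+ERα library 1 (70.1% of all genes) and 31 without library 2 (66.2%), and the second 24 without PPARα+ERβ library 1 (70.2%).

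**Figure D4:**
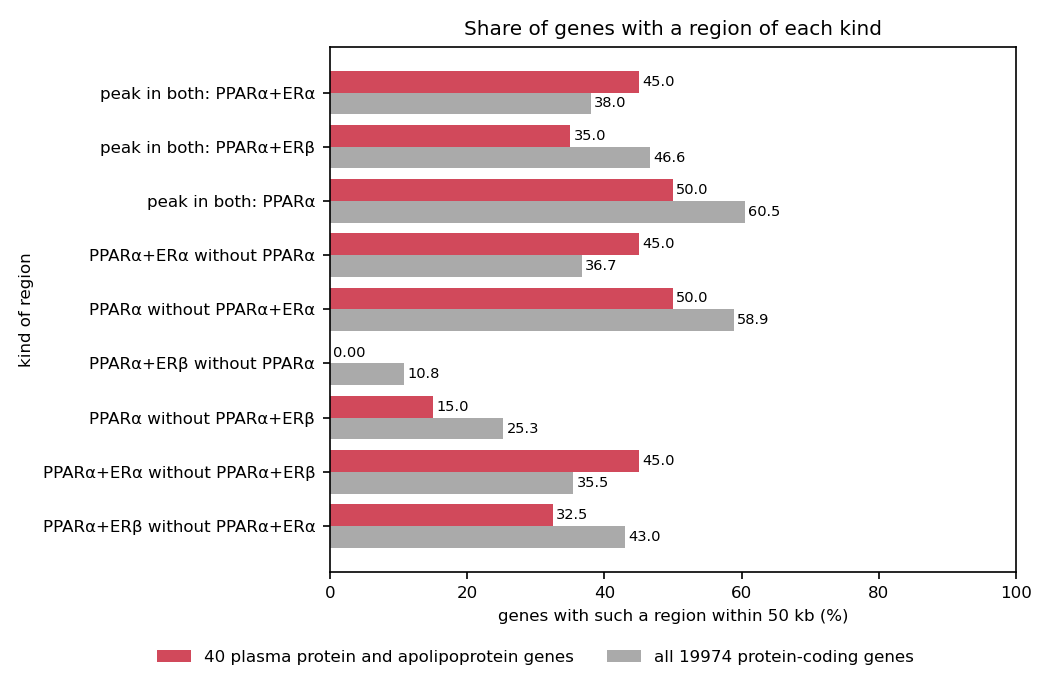
Share of genes (horizontal, %) with a region of each kind within 50 kb, for the 40 genes and for all 19974 protein-coding genes. The 40 genes lie above the background for kinds called in PPARα+ERα (45.0 against 35.5 to 38.0; within 10 kb, 17.5 to 20 against 19.5 to 21.0) and below it for the kinds called in PPARα+ERβ or PPARα.

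Counted by peaks per gene for each 10000 peaks of its list, the PPARα+ERα libraries both stood above both PPARα libraries for 11 of the 40 genes and below for 9, against 18.6% and 29.2% of all genes. PPARα+ERβ stood above PPARα for 6 and below for 3, against 21.7% and 9.88%. PPARα+ERα stood above PPARα+ERβ for 11 and below for 7, against 15.9% and 27.1%. Both sets of 11 hold neighbours that share peaks: ALB with AFP, and APOA1, APOA4, APOA5 and APOC3. As plain peak numbers, PPARα+ERα was above PPARα for 5 genes (ALB, AFP, APOA4, APOA5 and ABCG1; 11.6% of all genes) and below it for 5 (C3, APOA2, LPL, SCARB1 and ABCA1; 20.4% of all). All AFP peaks are also ALB peaks, and all APOA5 peaks are also APOA4 peaks, so these genes are not separate cases. No gene had more peaks in both PPARα+ERβ libraries than in both PPARα libraries (2.36% of all). HPX, MTTP and ABCA1 had fewer, where 14.6% of all genes did.

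Other genes of the same pathways, 73 further plasma protein and lipoprotein genes, had an occupied region at 22 (30.1%) in PPARα+ERα, 26 (35.6%) in PPARα+ERβ and 41 (56.2%) in PPARα. Of 30 genes characteristic of other tissues, such as muscle, neuron and blood, 10 (33.3%) did in PPARα+ERα, 12 (40%) in PPARα+ERβ and 18 (60%) in PPARα. The regions ranked highest by the lower within-list percentile for the first list were those of F13B (a subunit of clotting factor XIII), with 72 and 100 fragments in PPARα inside the gene, then of SERPINA3 (alpha-1-antichymotrypsin) and its neighbour SERPINA5, with 39 and 44 fragments in PPARα+ERβ and also called in both PPARα libraries. The region of C8A (a chain of complement C8), with 15 and 23 fragments in PPARα+ERα inside the gene, came next.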

How the data were processed

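HepG2 chromatin precipitated with an antibody to PPARα was measured by sequencing, per the labels, after nuclease digestion and sonication. Per the submitters' processing notes, the tools included MACS2 2.2.7.1, Bowtie 1.0.1 and Trim Galore 0.6.4, besides DiffBind, HOMER and ChIPseeker, and the build was hg38. Their roles and the control used for peak calling are not given in the sources used here. The 6 deposited lists hold 1 peak a line, called per library. The deposited fold is a ratio of the summit to local background. It is the authors' own value and ranks peaks within a list only. The deposited −log10 p and −log10 q belong to the summit. The authors' score is −log10 q times 10 without its decimals.

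The deposited −log10 p, read as a Poisson tail, gave with the fold the fragments and local background of each summit, within 0.001 for 100% of peaks. They are estimates, not read counts. Peaks on chromosomes 1 to 22 and X that shared 1 base or more were merged into regions. Groups were set side by side by counts of genes, with the same count over all 19974 genes, and with no set test. The gene table gives spans without exons. By rule, regions named with full values have a peak within 3 kb of a gene's start in both libraries of a group. Where no strand was given, as for SCARB1, either end of the span was used in place of the start. The rule also takes regions that rank among the 5 highest in a comparison by the lower within-list percentile of −log10 q. The rule also names genes occupied in all groups. Other regions were chosen after their values were seen. Alternatives were a 10 kb window, lists cut to 17457 peaks, −log10 q of at least 3, an overlap of at least 0.5 of the shorter peak, background of at most 3 times the genome-wide level, and each library left out. Recovery of fragments, merging of peaks and assignment of regions to genes were tested on simulated data. That simulation had isolated regions and a 3 kb window, so overlapping windows of 50 kb were not tested. The genes and lists were chosen with earlier results of these data known. The tools here were SciPy 1.17.1, NumPy 2.4.6, pandas 2.3.3, Matplotlib 3.10.9 and Python 3.11.15.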

Additional observations from a re-analysis of the deposited data

How the results depend on the processing

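The counts of genes were recomputed with 1 choice changed at a time. Requiring −log10 q of at least 3, or an overlap of at least 0.5 of the shorter peak, moved none of them by over 1.5 times. A window of 10 kb gave occupied regions at 8 genes in PPARα+ERα, 3 in PPARα+ERβ and 6 in PPARα. It gave 8 genes for PPARα+ERα without PPARα, 6 for the reverse, 1 for PPARα without PPARα+ERβ, 7 for PPARα+ERα without PPARα+ERβ and 3 for its reverse. The share of the 40 genes occupied in PPARα+ERα, 20%, was then below that of all genes, 21.0%, where at 50 kb it was above it. The density ratio there was 1.33 in PPARα+ERα, 0.949 in PPARα+ERβ and 0.931 in PPARα. Equal list lengths gave 4 genes for PPARα+ERβ without PPARα and 3 for the reverse, which turned the order of the main counts, 0 and 6. The order of PPARα+ERα without PPARα and its reverse, 18 and 20, also turned with a 10 kb window, equal lengths (16 and 14) and low background (16 and 2). Low-background peaks alone gave 2 occupied genes in PPARα+ERβ and 2 in PPARα, 2 genes for PPARα without PPARα+ERα, 2 for PPARα without PPARα+ERβ, 1 for PPARα+ERβ without PPARα+ERα, and a density ratio of 0.872 in PPARα+ERβ. For the low-background alternative the smaller number of peaks is part of its construction. A 10 kb window lies inside the 50 kb window, so its counts of genes can by construction only be equal or lower. Why the order of the counts turned, and why the density ratios moved, was not tested.

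Leaving out each library in turn gave 30 to 32 occupied genes in PPARα+ERα, 21 to 25 in PPARα+ERβ and 27 to 34 in PPARα. A region then needs a peak, or no peak, only in the remaining library of that group. Higher counts of genes are thus part of the construction. PPARα+ERα without PPARα ranged over 18 to 31 genes and its reverse over 20 to 34. PPARα+ERβ without PPARα ranged over 2 to 10 and its reverse over 9 to 21. PPARα+ERα without PPARα+ERβ ranged over 18 to 31 and its reverse over 13 to 24. Density ratios of single libraries ran over 1.33 to 1.44 in PPARα+ERα, 1.03 to 1.26 in PPARα+ERβ and 1.12 to 1.23 in PPARα. Peak numbers not divided by list length, an alternative chosen after seeing the data, gave 5 genes above and 5 below for PPARα+ERα against PPARα, 0 above for PPARα+ERβ against PPARα, and 2 below for PPARα+ERα against PPARα+ERβ. No paired analysis was possible because the library numbers follow the order of deposit and the counts come from no test. Summits near the genes held 4 to 37 fragments in PPARα+ERα, and whether this limited what could be called there was not tested.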

Other observations

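Apart from HPX, few summits fell within 3 kb of a transcript start of these genes. In PPARα+ERα library 2 alone, summits lay 1912 bases before ALB with 18 fragments, 1421 bases before FGB with 6 and 2602 bases before AHSG with 7. In PPARα library 1 alone a summit lay 914 bases before APOH, with 81 fragments at 58.9 times the genome-wide background. A region 2981 bases downstream of a listed APOE start held 44 fragments in PPARα+ERβ library 2 and 68 in PPARα library 2.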
